A study of Arabidopsis thaliana with 12 samples.

Results

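The genes that write and maintain DNA methylation in Arabidopsis thaliana were followed here as 10 named members, MET1 (AT5G49160), CMT2 (AT4G19020), CMT3 (AT1G69770), DRM2 (AT5G14620), DRM3 (AT3G17310), DNMT2 (AT5G25480), DDM1 (AT5G66750), VIM1 (AT1G57820), VIM2 (AT1G66050) and VIM3 (AT5G39550). They were chosen by gene identifier, with earlier results of these data known. They are 10 of the 24775 genes listed with a value in the libraries used. RNA-seq was available as 3 libraries in each of 3 groups. These were young shoots of 2-week-old *met1* plants, which carry the *met1-3* allele of MET1, mature leaves of 5-week-old *ddcc* plants, which are mutated in DRM1, DRM2, CMT2 and CMT3, and mature leaves of 5-week-old wild-type Col-0. All lines were in the Columbia background. The study's methods describe the material as the aerial part of the plants, without the inflorescence at 5 weeks. No wild type of the age of the *met1* shoots was analysed here, so the genotype, the age and the tissue of these shoots cannot be told apart. Another 3 libraries, labelled as mature leaves of *met1*, were left out because their reads were identical to those of Col-0 at all 22607 shared genes in each replicate.

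Methyl groups on plant cytosines are kept through cell division by different enzymes for different sequence contexts. MET1 copies methylation at CG sites after replication, and the VIM proteins bind hemimethylated DNA and are needed for this step. CMT3 maintains methylation at CHG sites and CMT2 methylates CHG and CHH sites in heterochromatin, both through the histone mark H3K9me2. DRM2 acts at the end of RNA-directed DNA methylation (RdDM), DRM3 is a related protein without catalytic activity that assists it, and DNMT2 methylates transfer RNA. DDM1 is a chromatin remodeller that gives the methyltransferases access to heterochromatin. Several of these genes, MET1 and CMT3 among them, are known for high RNA levels in dividing tissue.

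The members sit on chromosomes 1, 3, 4 and 5, all as protein-coding genes in the TAIR10.1 assembly. VIM2 lies at 24589343 to 24592780 on chromosome 1, only a few kilobases from its relative VIM4 at 24583740 to 24586760 on the opposite strand, and both need to be read with care. The first 90 bases of the coding sequences show how alike the VIM genes are, with capitals marking bases that differ from VIM2:

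VIM2: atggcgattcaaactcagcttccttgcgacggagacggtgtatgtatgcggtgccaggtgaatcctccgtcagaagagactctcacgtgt

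VIM4: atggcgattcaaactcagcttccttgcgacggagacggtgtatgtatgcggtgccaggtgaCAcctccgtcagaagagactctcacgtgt

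VIM3: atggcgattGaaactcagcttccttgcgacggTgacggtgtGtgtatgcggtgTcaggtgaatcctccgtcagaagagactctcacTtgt

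VIM1: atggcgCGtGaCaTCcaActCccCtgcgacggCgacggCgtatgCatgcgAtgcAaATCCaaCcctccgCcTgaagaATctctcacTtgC

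In this stretch VIM4 differed from VIM2 at 2 bases, VIM3 at 5 and VIM1 at 25. Over the aligned coding sequence VIM2 and VIM4 were identical at 99.5% of bases (1860 of 1869), VIM2 and VIM3 at 95.8%, and VIM1 and VIM2 at 75.6%. Of all windows of 100 bases within the exons of VIM2, 49.9% were found elsewhere in the genome, against 1.07% for VIM3 and none for the other 8 members. The authors discarded reads mapped with a quality below 30, so VIM2 could be undercounted and its values are uncertain. The methyltransferases were further apart, with 62.9% identity between CMT2 and CMT3 and 56.5% between DRM2 and DRM3. DRM3 shared 70 exonic bases with a gene on the opposite strand (AT3G17300), and the strand setting of the counting is not given in the sources used here.

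Levels are given as reads per 1000000 reads on nuclear genes (RPM), with the SD over 3 libraries, and as RPM per kb of exonic length (RPKM) where genes are compared with each other. Each library held 10105057 to 13989374 reads on genes. Plastid genes took 56.7 to 58.3% of them in *met1* shoots, 64.4 to 65.8% in *ddcc* leaves and 57.8 to 59.6% in Col-0 leaves, which left 3938275 to 5310477 reads on nuclear genes. A count of 3 reads, the upper limit that a count of 0 allows, equalled 0.565 to 0.762 RPM. This limit covers counting error only. In bulk tissue, fewer cells of a type and less RNA per cell cannot be told apart. Nothing in the labels says that replicates came from separate plants, so p-values measure the spread between these libraries. The labelled tissues were checked against markers. The summed level of the photosynthesis genes RBCS1A, LHCB1.3 and CA1 was 14495 to 15544 RPM in *met1* shoots, 8454 to 9147 RPM in *ddcc* leaves and 1422 to 2161 RPM in Col-0 leaves, which was the lowest of the groups although labelled as leaves. The meristem gene STM had 2.29 to 4.14 RPM in *met1* shoots, 11.7 to 14.8 RPM in *ddcc* leaves and 5.11 to 15.3 RPM in Col-0 leaves, and the meristem genes WUS and CLV3 were not listed with a value here.

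MET1 was the member with the most reads in *met1* shoots. Its level was 60.4, 66.0 and 84.2 RPM in *met1* shoots, 22.0, 20.7 and 13.9 RPM in *ddcc* leaves and 9.28, 12.5 and 13.9 RPM in Col-0 leaves. Every shoot library lay far above every leaf library, and the lowest *ddcc* library lay just above the highest Col-0 library. The mean level of MET1 in *met1* shoots was 5.90 times that in Col-0 leaves. Counts over the whole gene do not show which part of it the reads came from, so the reads on MET1 did not check the *met1* label. In mature leaves MET1 was higher in *ddcc* than in Col-0, by 0.72 ± 0.22 on the log2 scale (fold change ± standard error, as for each log2 value with an error, adjusted p = 0.0447 by limma, Benjamini-Hochberg). This call held in 5 of 13 alternatives, with adjusted p-values between 0.0188 and 0.153. It was lost when any library other than *ddcc* replicate 3 was left out (0.0521 to 0.145), and the fold change was 0.40 when libraries were scaled by all counted reads.

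The VIM genes, the partners of MET1, were also highest in the shoots. VIM1 had 29.98, 28.7 and 40.9 RPM in *met1* shoots, 5.83, 3.53 and 2.49 RPM in *ddcc* leaves and 3.02, 2.42 and 2.19 RPM in Col-0 leaves. The shoot libraries lay 13.1 times above Col-0 leaves in the mean, whereas the *ddcc* and Col-0 libraries overlapped. Between the leaves VIM1 did not pass the test, with a log2 difference of 0.60 ± 0.38 (adjusted p = 0.288, limma). VIM3 had 28, 28 and 62 reads in *met1* shoots, 8, 12 and 6 reads in *ddcc* leaves and 4, 2 and 1 reads in Col-0 leaves. The shoots and the *ddcc* leaves both exceeded all Col-0 libraries, and the ratio of 16.1 between the mean RPM of shoots and of Col-0 leaves rests on the 7 reads of Col-0. VIM3 was too low for the filter of the leaf comparison and entered only the fit without a filter, where its log2 fold change was 1.77 (adjusted p = 0.0320, limma). VIM2, with the reservation on shared sequence above, had 4, 2 and 14 reads in *met1* shoots, 0, 0 and 1 reads in *ddcc* leaves and 1, 3 and 1 reads in Col-0 leaves. Its groups overlapped, and its leaf counts were at or below 3 reads in every library.

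DDM1 followed the same order of groups. It had 14.9, 18.8 and 25.6 RPM in *met1* shoots, 6.08, 3.09 and 2.24 RPM in *ddcc* leaves and 0.696, 1.61 and 2.19 RPM in Col-0 leaves. The 3 groups did not overlap, although *ddcc* replicate 3 and Col-0 replicate 3 were close, with 9 and 11 reads before scaling. The mean of the shoots was 13.2 times that of Col-0 leaves. The log2 fold change of DDM1 between *ddcc* and Col-0 leaves was 1.29 (standard error 0.49), the largest positive value among the tested members, but it did not pass the test (adjusted p = 0.0888, limma; 0.0764 to 0.256 over 12 alternatives).

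The chromomethylases CMT3 and CMT2 behaved differently from each other. CMT3 had 27.5, 35.04 and 45.4 RPM in *met1* shoots, 7.85, 7.05 and 8.71 RPM in *ddcc* leaves and 10.7, 10.9 and 10.3 RPM in Col-0 leaves. The shoots were 3.38 times above Col-0 leaves, and the *ddcc* libraries, in which CMT3 is mutated, lay a little below those of Col-0. That leaf difference did not pass the test (-0.35 ± 0.19 on the log2 scale, adjusted p = 0.207, limma). Scaled by all counted reads it did pass (-0.67, adjusted p = 0.0200). CMT2 had 31.0, 41.1 and 48.2 RPM in *met1* shoots, 36.7, 40.3 and 43.6 RPM in *ddcc* leaves and 25.8, 32.9 and 26.2 RPM in Col-0 leaves. Shoots and Col-0 leaves overlapped for CMT2, while all *ddcc* libraries lay above all Col-0 libraries. Although CMT2 is among the mutated genes of *ddcc*, its reads rose there by 0.58 ± 0.14 on the log2 scale (adjusted p = 0.0149, limma). This held in 10 of 13 alternatives, and the value fell to 0.26 (adjusted p = 0.181) when libraries were scaled by all counted reads, where plastid reads enter. It was also lost without *ddcc* replicate 2 or *ddcc* replicate 3 (adjusted p = 0.0507 and 0.0548, limma). As for MET1 in *met1* shoots, whole-gene counts do not show which part of CMT2, CMT3 or DRM2 the *ddcc* reads came from.

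**Figure D1:**
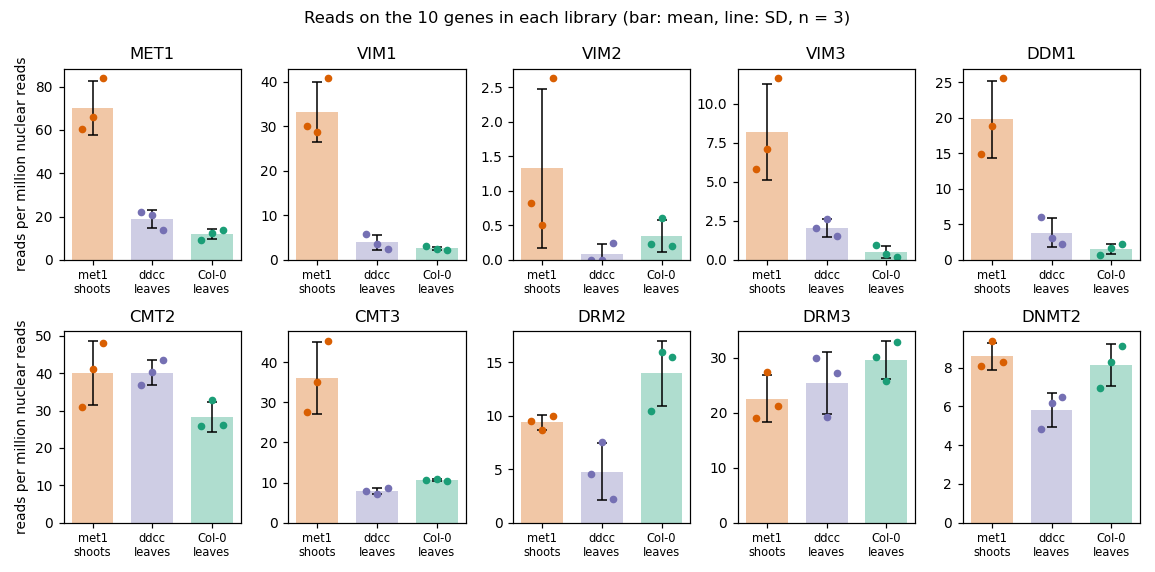
Level of each of the 10 genes in RPM (y axis, a separate scale for each gene) in *met1* young shoots, *ddcc* mature leaves and Col-0 mature leaves. Points are libraries, bars are means and lines are the SD (n = 3). MET1, VIM1, VIM3, DDM1 and CMT3 had every shoot library above every Col-0 library, and DRM2 had every shoot library below.

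DRM2, the writer of the RdDM pathway, had a different order of groups. It had 9.51, 8.63 and 9.98 RPM in *met1* shoots, 4.56, 7.49 and 2.24 RPM in *ddcc* leaves and 10.4, 15.9 and 15.5 RPM in Col-0 leaves. Both the shoots and the *ddcc* leaves lay wholly below the Col-0 leaves. DRM2, which is mutated in *ddcc*, fell by 1.56 on the log2 scale in *ddcc* leaves (standard error 0.38, adjusted p = 0.0170, limma). It was the largest change among the tested members in either direction, and the adjusted p-value was 0.00262 to 0.0721 over 12 alternatives, past 0.05 in 11 of them and lost only without Col-0 replicate 2. DRM3 had 19.0, 27.4 and 21.3 RPM in *met1* shoots, 29.9, 19.2 and 27.1 RPM in *ddcc* leaves and 30.2, 25.8 and 32.8 RPM in Col-0 leaves. Its groups overlapped, with a log2 difference of -0.16 ± 0.19 between the leaves (adjusted p = 0.576, limma), and the sign turned without *ddcc* replicate 2 (0.042). DNMT2 had 8.06, 9.39 and 8.29 RPM in *met1* shoots, 4.81, 6.17 and 6.47 RPM in *ddcc* leaves and 6.96, 8.27 and 9.14 RPM in Col-0 leaves. Shoots and Col-0 leaves overlapped, and the *ddcc* libraries lay just below those of Col-0 without passing the test (-0.40 ± 0.21 on the log2 scale, adjusted p = 0.213, limma). Scaled by all counted reads, DNMT2 passed it (-0.71, adjusted p = 0.0316).

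Over the 10 members, 8 passed the filter of the leaf comparison, which kept 17005 genes. VIM2 and VIM3 did not. Differentially expressed genes (DEGs) had to change by more than 1 on the log2 scale in either direction, with an adjusted p-value below 0.01. They made up 3.9% of tested genes as higher in *ddcc* and 1.16% as lower, and 0 of the 8 members were among them by limma or by limma-voom (4 had an unadjusted p-value under 0.05). With the fold threshold dropped and the adjusted p-value set to 0.05, 13% of genes were higher and 8.32% lower, and of the 8 members 2 were higher (MET1 and CMT2) and 1 was lower (DRM2). Scaled by all counted reads, the split of the genes was 1186 higher and 6295 lower, in place of 2219 higher and 1415 lower, and that of the members was 0 higher and 3 lower (CMT3, DRM2 and DNMT2). All 3 *ddcc* libraries lay above all 3 Col-0 libraries in 21.1% of tested genes and below them in 19.4%, and among the tested members this held for 3 above (MET1, CMT2 and DDM1) and 3 below (CMT3, DRM2 and DNMT2). The median log2 fold change was 0.21 over the 8 tested members and -0.03 over all tested genes. Scaling by all counted reads moved the median of all genes to -0.35.

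Genes of DNA replication were set beside the members in this comparison. Of 17 S phase genes 13 were tested, and 7 of them rose in *ddcc* leaves at an adjusted p-value under 0.05 while none fell. The replicative helicase subunit MCM7 (log2 fold change 1.51, adjusted p = 0.00751, limma) and the ribonucleotide reductase subunit TSO2 (1.07, adjusted p = 0.00527, limma) were DEGs, each in 6 of 13 alternatives. Subunits MCM5 (1.36) and MCM2 (1.25) passed without being DEGs, and the median of the 13 tested genes was 0.85. Scaled by all counted reads, 5 genes of the list rose, 1 fell (RNR2A) and neither MCM7 (1.20, adjusted p = 0.0101) nor TSO2 (0.76, adjusted p = 0.0192) was a DEG. With 1 library left out, 4 to 7 genes rose, with 4 of them without Col-0 replicate 2 or any one *ddcc* replicate. The summed level of the S phase list was 156 to 172 RPM in *ddcc* leaves and 130 to 140 RPM in Col-0 leaves. RNR1 and RNR2A, with log2 fold changes of -0.06 and -0.14, weighed most in this sum. They held 45.7 to 48% of the S phase reads in *ddcc* leaves and 62.5 to 66.8% in Col-0 leaves. The summed level of the G2/M list, mitotic genes such as cyclins, was 22.7 to 32.2 RPM in *ddcc* leaves and 11.1 to 14.7 RPM in Col-0 leaves. Only 3 of its 15 genes were tested and none passed. The part of dividing cells in the values of MET1 and DDM1 was not tested.

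**Figure D2:**
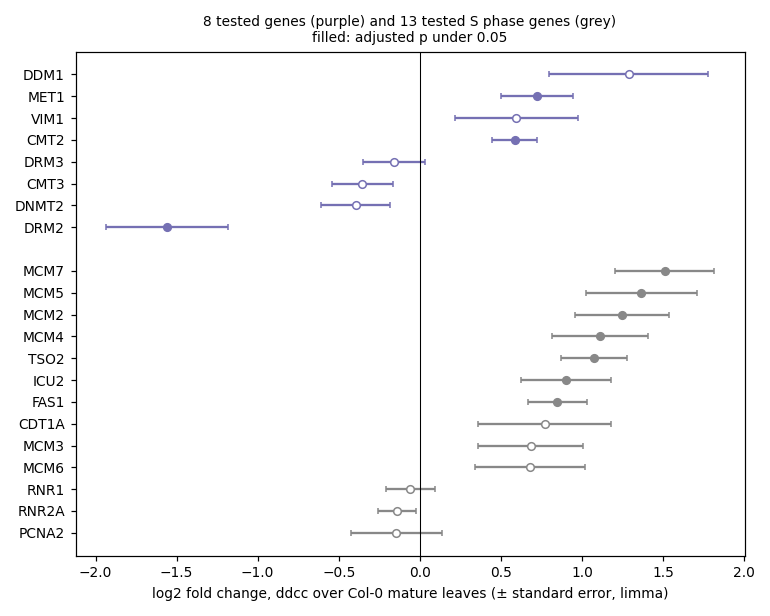
Log2 fold change of *ddcc* over Col-0 mature leaves (x axis) with its standard error, for the 8 tested members (purple) and the 13 tested S phase genes (grey). Filled points had an adjusted p-value under 0.05, among them MET1 and CMT2 above 0 and DRM2 below 0, and 7 of the S phase genes above 0.

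RdDM factors and other genes of the methylation pathway gave a background for the leaf comparison. Of 21 RdDM genes 19 were tested, and 1 rose in *ddcc* leaves (RDM1, log2 fold change 0.94) while 2 fell. These 2 were the polymerase subunit NRPD2 (-0.67) and the small RNA producing enzyme DCL3 (-0.68). Among all tested genes 13% rose and 8.32% fell. The median of the 19 RdDM genes was -0.04. RDM1 passed in 4 of 13 alternatives, DCL3 in 9 and NRPD2 in all 13. Scaled by all counted reads 0 RdDM genes rose and 8 fell, where 1186 of 17005 genes rose and 6295 fell. SUVH4, the H3K9 methyltransferase that works with CMT3, fell by 0.67 on the log2 scale (adjusted p = 0.0429, limma), a call that held in 6 of 13 alternatives. Of 3 tested genes of the H3K9 mark, none rose and SUVH4 alone fell, but all 3 fell when scaled by all counted reads. IBM1, a demethylase of H3K9, had a log2 fold change of -0.37 and did not pass (adjusted p = 0.0568, limma). It passed in 4 of 13 alternatives, among them scaling by total nuclear reads (-0.45, adjusted p = 0.0300) and by all counted reads (-0.70, adjusted p = 0.00216). The paper describes IBM1 as strongly downregulated in *ddcc*, and says that its later analyses used 2-week-old plants. Counts over the whole gene do not show which part of IBM1 the reads came from. The DNA demethylase ROS1, which removes DNA methylation, had 0, 1 and 14 reads in *met1* shoots, 49, 13 and 37 reads in *ddcc* leaves and 320, 468 and 529 reads in Col-0 leaves. It fell in *ddcc* leaves by 3.58 on the log2 scale (standard error 0.43, adjusted p = 0.000417, limma). Of 4 DNA demethylase genes tested, ROS1 alone had an adjusted p-value under 0.05. Scaled by all counted reads, 2 of them fell.

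Close relatives of the members were nearly silent, with the exception of MET2A (AT4G14140) and VIM6 (AT4G08590). MET2A, whose coding sequence was identical to MET1 at 80.7% of aligned bases, had 0, 7 and 12 reads in *met1* shoots, 21, 29 and 34 reads in *ddcc* leaves and 2, 3 and 6 reads in Col-0 leaves. Every *ddcc* library lay above every other library, and MET2A was a DEG, higher by 2.94 ± 0.38 on the log2 scale (adjusted p = 0.000657, limma). MET2B, 94.7% identical to MET2A, and also MET3 and VIM5, were not listed with a value here, and 2.95% of the exonic windows of MET2A were found elsewhere in the genome. VIM6, also known as ORTHL, had 19.8, 16.3 and 25.0 RPM in *met1* shoots, 4.56, 2.87 and 2.74 RPM in *ddcc* leaves and 5.11, 5.45 and 3.97 RPM in Col-0 leaves. It was high in the shoots like VIM1, and its leaf groups overlapped. DRM1 had 1 read over the 3 *ddcc* libraries and 1 read over the 3 Col-0 libraries, so its loss in *ddcc* was not detectable at this depth. CMT1 had at most 1 read in any library, and VIM4 was listed only in the shoots, with 0, 1 and 1 reads.

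The order of the members by RPKM differed between the groups. In *met1* shoots MET1 (13.9 ± 2.46 RPKM), VIM1 (13.4 ± 2.69 RPKM) and CMT3 (11.7 ± 2.93 RPKM) were highest, and each neighbour in the order from MET1 to DNMT2 overlapped with the next (n = 3). DRM2 (4.02 ± 0.29 RPKM) lay below DNMT2 (6.05 ± 0.50 RPKM) without overlap. In *ddcc* leaves CMT2 (9.32 ± 0.79 RPKM) and DRM3 (7.46 ± 1.64 RPKM) led and overlapped with each other, and MET1 had 3.73 ± 0.86 RPKM. In Col-0 leaves DRM3 (8.69 ± 1.03 RPKM), CMT2 (6.56 ± 0.92 RPKM), DRM2 (5.99 ± 1.31 RPKM) and DNMT2 (5.72 ± 0.77 RPKM) led, each overlapping with the next. DRM3 overlapped only with CMT2 and lay wholly above DRM2 and DNMT2. Below them CMT3 (3.47 ± 0.09 RPKM), MET1 (2.35 ± 0.47 RPKM) and VIM1 (1.02 ± 0.17 RPKM) followed, each apart from the next, and DDM1 (0.54 ± 0.27 RPKM) overlapped with VIM3 (0.23 ± 0.17 RPKM). VIM2 was last in every group, with 0.59 RPKM in *met1* shoots, 0.037 RPKM in *ddcc* leaves and 0.16 RPKM in Col-0 leaves. It overlapped with VIM3 in Col-0 leaves, and its shared sequence could make its RPKM too low.

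Shoots and leaves were compared as a description, since they were normalized apart and shared no control of the same age. Both this comparison and that of the leaves used the same Col-0 libraries. Every shoot library lay above every Col-0 leaf library for 5 members, MET1, CMT3, DDM1, VIM1 and VIM3, where 24.1% of 19945 genes with at least 15 reads did so. For 1 member, DRM2, every shoot library lay below, where 42.7% of genes did so. With 1 RPM added to both means, the log2 ratio was 3.27 for VIM1, 3.05 for DDM1, 2.61 for VIM3, 2.46 for MET1, 1.67 for CMT3, 0.79 for VIM2, 0.49 for CMT2, 0.07 for DNMT2, -0.38 for DRM3 and -0.53 for DRM2. Their median was 1.23, against -0.28 over the 19945 genes. The order of the low genes depended on the pseudocount, and with 0.1 RPM added VIM3 came first (3.76), before VIM1 (3.66) and DDM1 (3.64). Per 1000000 of all counted reads, VIM3 had 1.83, VIM1 2.84 and DDM1 2.49. There the added 1 weighed more, because plastid reads in the total made every level smaller. Scaled by the median of ratios over the 9 libraries, which sets the centre of all genes alike, 8 members lay above, now with CMT2, DNMT2 and VIM2, where 34% of the same genes did so, and DRM2 and DRM3 had ratios of -0.20 and -0.02.

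The markers of dividing cells were also higher in the shoots. Of the 17 S phase genes 16 had every shoot library above every Col-0 leaf library and 1, RNR2A, had every library below, with a median log2 ratio of 2.99. All 14 G2/M genes with values in the 9 libraries lay above, with a median of 3.02. These 14 genes averaged 0.145 (CDKB1;2) to 2.32 RPM (KNOLLE) in Col-0 leaves. The 1 RPM added to each mean therefore makes their ratios too small. The summed S phase level was 534 to 739 RPM in *met1* shoots and 130 to 140 RPM in Col-0 leaves, and the summed G2/M level was 167 to 302 RPM in *met1* shoots and 11.1 to 14.7 RPM in Col-0 leaves. *met1* replicate 3 was the highest shoot library for both lists and also for MET1, CMT2, CMT3, DRM2, DDM1 and all 3 VIM genes.

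**Figure D3:**
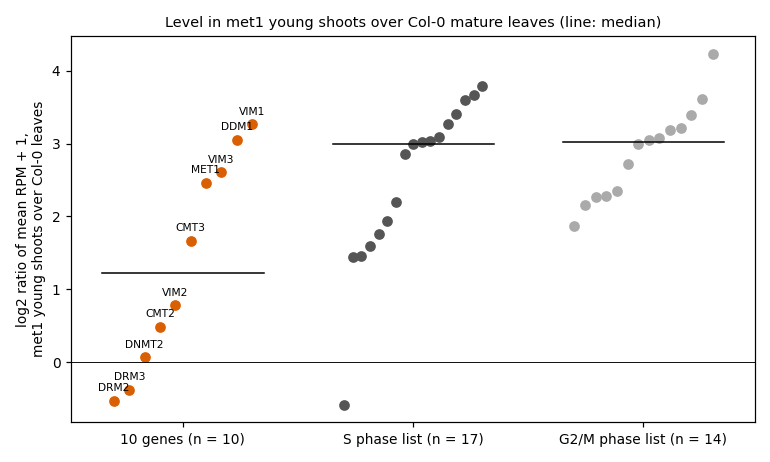
Log2 ratio of the mean level in *met1* young shoots over that in Col-0 mature leaves, with 1 RPM added to each mean (y axis), for the 10 members, the 17 S phase genes and the 14 G2/M genes with values in all libraries. Each point is a gene and the line is the median of its set. VIM1, DDM1, VIM3 and MET1 lay between 2.46 and 3.27, and the other 6 members lay lower. The medians of the marker lists were 2.99 and 3.02. The added 1 RPM shrinks ratios most where the Col-0 level is low, as in the G2/M genes, so like heights do not mean like fold changes.

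To set the members beside these markers, their reads were expressed per 100 reads of the S phase list in the same library. On this scale 4 members had every shoot library above every Col-0 library, where 5.33% of the 19945 genes did so. MET1 had 11.1 to 12.4 in *met1* shoots and 6.64 to 10.7 in Col-0 leaves, VIM1 had 5.37 to 5.53 in *met1* shoots and 1.68 to 2.16 in Col-0 leaves, and DDM1 had 2.73 to 3.52 in *met1* shoots and 0.498 to 1.68 in Col-0 leaves. VIM3 was the other one. CMT3, although higher in RPM, was lower per S phase read, with 5.04 to 6.56 in *met1* shoots and 7.64 to 8.05 in Col-0 leaves, and CMT2, DRM2, DRM3 and DNMT2 were lower too, where 86.5% of genes were. The count depended on the marker list. RNR1 and RNR2A, subunits of ribonucleotide reductase singled out after their values were seen, held 27.4 to 28.6% of the S phase reads in *met1* shoots but 62.5 to 66.8% in Col-0 leaves, and without these genes only VIM1 stayed above, with 7.48 to 7.70 in *met1* shoots and 5.07 to 5.75 in Col-0 leaves, while 6 members lay below. Of all genes 3.54% lay above and 91% below on this scale. MET1 was then among those below, with 15.5 to 17.2 in *met1* shoots and 17.7 to 32.3 in Col-0 leaves. Per 100 reads of the G2/M list no member lay above and 7 lay below, where 2.76% of genes lay above and 92.6% below. The part of dividing cells in the higher levels of MET1, CMT3, DDM1, VIM1 and VIM3 in shoots was not tested beyond these ratios, and it cannot be told apart from the *met1* genotype, the age and the tissue.

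**Figure D4:**
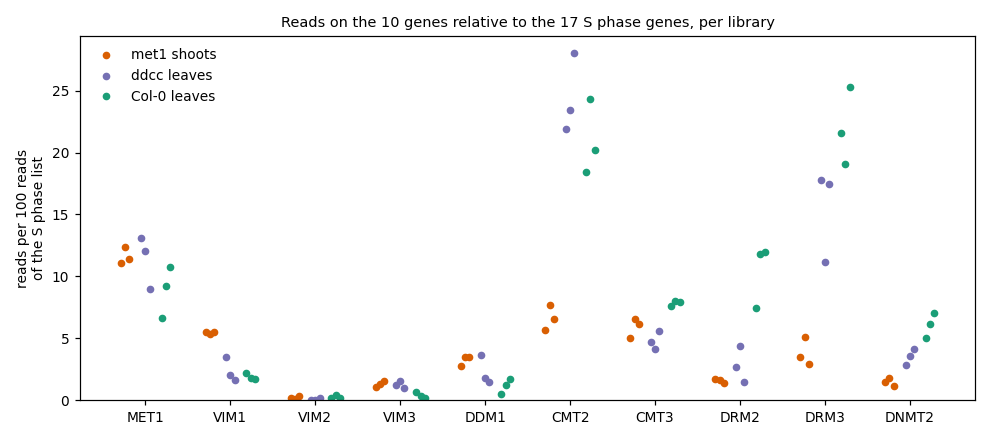
Reads on each member per 100 reads of the 17 S phase genes (y axis) in *met1* shoots, *ddcc* leaves and Col-0 leaves, with 1 point per library. MET1 and VIM1 in *met1* shoots (11.1 to 12.4 and 5.37 to 5.53) lay above Col-0 leaves, and CMT2, CMT3, DRM2, DRM3 and DNMT2 in *met1* shoots lay below them.

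The *ddcc* leaves gave few members above Col-0 on the same scale. Per 100 S phase reads, VIM3 alone lay above, with 0.960 to 1.54 in *ddcc* leaves and 0.153 to 0.664 in Col-0 leaves, and 4 members lay below. Of 19357 genes with at least 15 reads in these leaves 8.34% lay above and 41.6% below. MET1 overlapped, with 8.96 to 13.1 in *ddcc* leaves and 6.64 to 10.7 in Col-0 leaves, as did DDM1 and CMT2. RNR1 and RNR2A held 45.7 to 48% of the S phase reads in *ddcc* leaves, less than in Col-0 leaves. Without these genes MET1 still overlapped, with 17.2 to 24.2 in *ddcc* leaves and 17.7 to 32.3 in Col-0 leaves. Its mean was then lower in *ddcc* leaves (21.2) than in Col-0 leaves (25.4). Per 100 G2/M reads no member lay above and 6 lay below, where 1.99% of genes lay above and 75.9% below. VIM2, among these 6, had fewer than 15 reads.

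The promoters were searched for the E2F words TTTCCCGC, TTTGGCGC, TTTCGCGC and TTTGCCGC on both strands, from 250 bases before to 50 bases after each gene start, since E2F factors bind such words at many S phase genes. Of the 10 members only CMT3 held one, against 9 of 17 S phase genes, 0 of 15 G2/M genes and 1.76% of 27443 protein-coding genes. It is shown here with the word in capitals, read along the gene at chr1:26253647-26253676 (TAIR10.1, minus strand), and it starts 22 bases after the annotated gene start:

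CMT3: aaacccatcacTTTGGCGCttatgtgacgc

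A match describes letters in this window only, and the absence of one in MET1, DDM1 or the VIM genes says nothing on the factors that act there.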

How the data were processed

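The authors trimmed the reads, mapped them to TAIR10 with HISAT2, discarded those whose mapping quality was below 30 and counted the rest by gene. For trimming, their processing notes name Trimmomatic, whereas the methods name Fastp. Both name DESeq2, the methods name HTSeq-count for counting, and versions are not given in the sources used here. Each deposited value is the log2 of the scaled reads of a gene (reads over the size factor of the library) plus a pseudocount of 1. The log was undone and all values came out as whole reads (largest deviation 9e-08). Shoot files and leaf files were normalized apart, so levels were set side by side in RPM. *ddcc* and Col-0 leaves were compared with limma 3.58.1 in R 4.3.3 (lmFit, eBayes with trend, no covariates) on the deposited log2 values for these 6 libraries, over genes with about 10 reads in at least 3 libraries and 15 reads in all, with Benjamini-Hochberg adjustment over all genes. The fit was also run on simulated data, with larger fold changes than those of the tested members, so that run does not show its power for them. The pseudocount makes the fold change of genes with few reads too small. All 10 members were named, every relative with a value, and up to 4 called genes of each further list. Members and lists were chosen with earlier results of these data known. Alternatives were other scalings, filters and pseudocounts, limma-voom, the replicate block and leaving out each library. Gene positions, exons and sequences came from RefSeq's TAIR10.1 annotation, matched by locus tag. Python 3.11.15 with pandas 2.3.3 was used for the tables.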

Additional observations from a re-analysis of the deposited data

How the results depend on the processing

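Of 102 alternative values for the members' log2 fold changes between *ddcc* and Col-0 leaves, 87 kept their direction and their side of an adjusted p-value of 0.05, 12 lost the call, 2 gained it and 1 turned round, which was DRM3 without *ddcc* replicate 2 (between -0.32 and 0.042 over the libraries left out). The number of members that were DEGs was 0, and it was 1, DRM2, under each of scaling by total nuclear reads, scaling by all counted reads and the replicate block. It was 0 whichever library was left out (0 to 0), and 3 when the fold threshold was dropped and the adjusted p-value set to 0.05, where 3634 genes passed instead of the 861 DEGs. The 861 DEGs became 554 to 958 when 1 library was left out, with the lowest number without *ddcc* replicate 2, and 1017 with the replicate block. The split of 663 higher and 198 lower became 599 and 300 under total nuclear reads and 440 and 787 under all counted reads. Same-numbered *ddcc* and Col-0 libraries had correlations of 0.213, 0.00085 and 0.035 of their deviations from the group means, so the numbers were not taken to pair the samples.

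The count of 5 members with all shoot libraries above Col-0 leaves was 8 under the median of ratios and 5 to 7 when 1 library was left out. Of 90 alternative values for the log2 ratios, 76 moved by less than the spread between libraries, 13 by more and 1 turned round, which was DNMT2 without Col-0 replicate 1 (between -0.018 and 0.15 over the libraries left out). The 13 include VIM1, VIM3 and DDM1 scaled by all counted reads, where the pseudocount weighs more. Per 100 S phase reads the 4 members above became 0 with the G2/M list, 1 without RNR1 and RNR2A, an alternative chosen after seeing the data, and 4 to 4 when 1 library was left out. With 1 to 13 reads in each Col-0 library, depth limits VIM1, VIM2, VIM3 and DDM1 most.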

Other observations

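The genes closest to MET1 in the shape of their profile over the 9 libraries were ranked by the root mean square distance of centred log2 levels, among 17233 genes with at least 100 reads. The first was AT5G45950 at 0.14, with a mean of 96.7 RPM in *met1* shoots, 26.2 RPM in *ddcc* leaves and 13.9 RPM in Col-0 leaves. It was followed by the plastid gene ATCG00790 (0.15), emb1211 (0.16), the plastid fatty acid desaturase FAD5 (0.16) and the plastid gene ATCG00780 (0.18). FAD5 averaged 340 RPM in *met1* shoots, 93.6 RPM in *ddcc* leaves and 58.4 RPM in Col-0 leaves. None of the 5 was a member or on a cell cycle list. The nearest S phase gene was CDT1A, a replication licensing factor, at rank 79, followed by MCM4 at rank 80. Of the members DDM1 ranked 120, VIM3 247, VIM1 658 and CMT3 742, whereas CMT2 (3873), DNMT2 (4715), DRM3 (8421) and DRM2 (8999) came far later.

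All 3 photosynthesis markers were DEGs in *ddcc* leaves, with log2 fold changes of 2.09 for RBCS1A, the small subunit of Rubisco, 2.62 for LHCB1.3, a light-harvesting protein, and 3.29 for the carbonic anhydrase CA1 (limma). The summed level of 5 flower genes was 0.207 to 1.69 RPM in *met1* shoots, 4.23 to 4.63 RPM in *ddcc* leaves and 3.95 to 6.75 RPM in Col-0 leaves, lowest in the shoots and overlapping between the leaves. MET1, CMT2 and DRM2 differed between the same leaf groups as the photosynthesis markers, and the part of leaf composition in their values was not tested.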
